A study of Rattus norvegicus with 54 samples.

Results

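The 9 genes described are Col12a1, Col14a1 and Col16a1, which encode fibril-associated collagens (FACITs), Col8a1 and Col8a2, which encode the network-forming type VIII chains, and Col15a1, Col18a1, Col4a1 and Col4a2, whose products lie in or beside basement membranes. They were matched to the files by symbol, and each of the 9 was found among the 40319 genes counted in all 54 libraries and passed the filter on low counts in every comparison. The libraries hold poly(A) RNA of the left ventricle of female athymic rats (strain F344/NJcl-rnu/rnu, 8 weeks old) taken 1 week after surgery. One set of animals had sham surgery, another had a permanent ligation of the left anterior descending coronary artery with no treatment (untreated MI), and in the third the ligation was followed by a bi-level sheet of human smooth muscle cells and human endothelial progenitor cells laid on the ischemic epicardium (cell sheet-treated). The 18 animals each gave 1 library per zone (infarct, border and remote), so that each of the 9 groups has n = 6, with the zones of sham hearts named as the labels name them. All animals, sham included, were athymic, a strain that lacks most T cells. A group's 6 libraries are labelled as technical replicates, but separate hearts are described in the study's methods. If the labels hold, the p-values measure technical spread only. Reads were aligned to the rat genome, human transcripts were not analysed here, and whether reads of the human sheet cells were counted on rat genes was not tested.

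FACITs attach to the surface of collagen I fibrils through short interrupted triple helices and link the fibrils to other matrix. Type VIII chains assemble into open hexagonal lattices, best known from the vessel wall and Descemet's membrane. The Col4a1 and Col4a2 chains form the heterotrimer that is the main scaffold of basement membranes around capillaries, smooth muscle cells and cardiomyocytes. Collagens XV and XVIII carry sugar side chains, sit at the basement membrane zone and release the fragments restin and endostatin from their C-terminal ends. In the heart, cardiac fibroblasts, endothelial cells and mural cells are known sources of these matrix proteins.

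Counts on genes lay between 12699204 and 23397754 per library, and levels are given as CPM (counts scaled by library total, with TMM factors, to a fixed sum). A gene was called where edgeR's quasi-likelihood test gave an adjusted p under 0.05 over all genes tested, and log2 fold changes are given ± SE. Because CPM values carry no gene length, levels are compared between libraries and not between genes. Sham replicate 5 stood apart in its group whatever the zone. Its summed level of 7 macrophage markers was 11179 CPM in the infarct zone, against 289.7 to 584 CPM in the other sham libraries, and its 9 cardiomyocyte markers summed to 29777 CPM against at least 78327 CPM. Cell sheet replicate 1 stood apart in the remote zone, with a myofibroblast sum of 4478 CPM against 183 to 687 CPM in the other 5 animals, and in the border zone, with a cardiomyocyte sum of 183 CPM against at least 10347 CPM. MI replicate 1 had the highest cardiomyocyte sum of the untreated infarct zones, 51803 CPM, and the lowest level of 8 of the 9 genes there. Results that rest on these libraries are given with and without them.

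**Figure D1:**
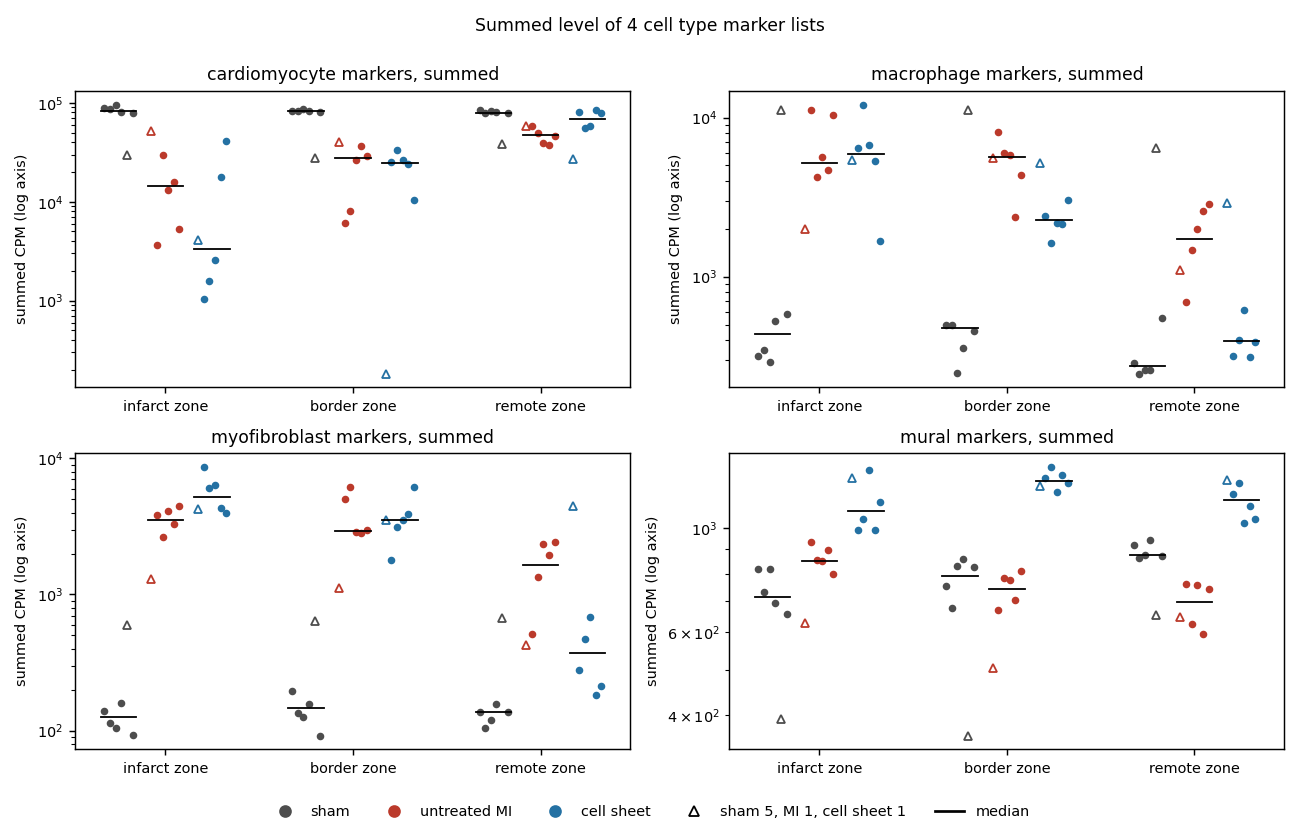
Summed CPM (log axis) of cardiomyocyte, macrophage, myofibroblast and mural marker genes in each of the 54 libraries, with 6 points and a median line per group and triangles for sham replicate 5, MI replicate 1 and cell sheet replicate 1. Sham replicate 5 reaches 11179 CPM of macrophage markers in the infarct zone, and cell sheet replicate 1 has a myofibroblast sum of 4478 CPM in the remote zone, above the 687 CPM of the next highest cell sheet library.

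One week after ligation, 8 of the 9 genes were higher in untreated MI than in sham in the infarct zone, beside 22.7% of the 15758 genes tested that were called higher there. The same count of 8 of 9 was found in the border zone, where 18.4% of genes were called higher, and 6 of 9 were called higher in the remote zone beside 11.7%. Col15a1 was the gene not called in any of the 3 zones, and Col4a1 and Col4a2 were in addition not called in the remote zone. The median log2 fold change over the 9 genes was 2.38 for the infarct, 2.19 for the border and 1.06 for the remote zone, against -0.02, -0.02 and -0.04 over all genes tested. The libraries of the groups did not overlap for 6 genes in the infarct zone, where this held with the infarct side higher for 8.74% of all genes, for 6 in the border zone (6.73%) and for 4 in the remote zone (3.89%). The number called was 8 in the infarct zone with any library left out, 7 or 8 in the border zone and 6 or 7 in the remote zone.

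Sums of several cell type marker lists differed between sham and untreated MI, some higher and some lower. The myofibroblast sum of 8 markers lay between 93.4 and 595 CPM in sham and between 1296 and 4495 CPM in untreated MI infarct zones. The fibroblast sum of 7 markers lay between 4906 and 8829.9 CPM in sham and between 9194 and 13532 CPM in untreated MI. Macrophage sums were 289.7 to 11179 CPM in sham (median 437, highest in replicate 5) and 2005 to 11129 CPM in untreated MI (median 5165). Cardiomyocyte sums were 29777 to 95900 CPM in sham and 3663 to 51803 CPM in untreated MI. Endothelial sums were 743 to 1732 CPM in sham (median 1618) and 790 to 1598 CPM in untreated MI (median 1099). Mural sums were 393 to 817 CPM in sham (median 713) and 628 to 932 CPM in untreated MI (median 852). No marker of these lists was at 0 in every library of a group, and none of the 9 collagen genes is in a marker list. The part of these cell types in the results was not tested, and in bulk tissue more cells of a type and more RNA per cell cannot be told apart.

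**Figure D2:**
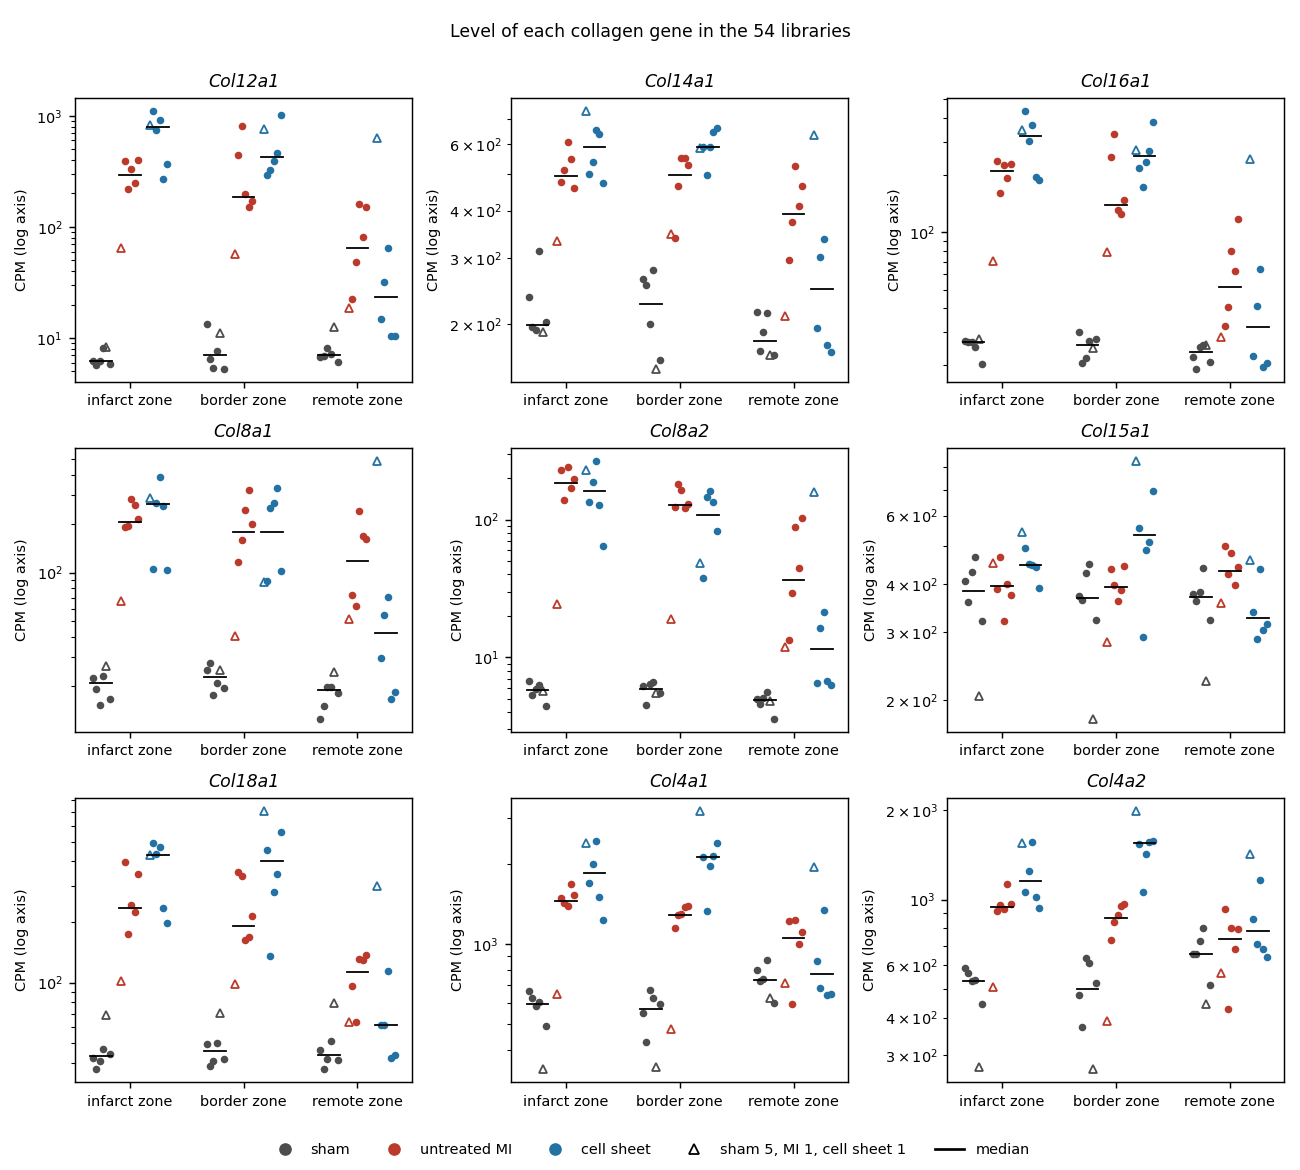
CPM (log axis) of the 9 collagen genes in the 54 libraries, by zone, with sham in grey, untreated MI in red and cell sheet-treated in blue, 6 points and a median line per group, and triangles for sham replicate 5, MI replicate 1 and cell sheet replicate 1. All infarct zone libraries of untreated MI lie above all sham libraries for Col12a1, Col14a1, Col16a1, Col8a1, Col8a2 and Col18a1, and cell sheet replicate 1 is the highest cell sheet library of the remote zone for all 9 genes.

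Among the FACITs, Col12a1, which encodes the collagen XII chain of fibril surfaces under mechanical load, had the largest fold change of the 9 genes in the infarct and border zones of untreated MI against sham. In the infarct zone its level in sham libraries ran from 5.74 CPM (median 6.21) to 8.36 CPM. In untreated MI it ran from 64.7 CPM in replicate 1 (median 291) to 400.2 CPM, and in cell sheet-treated hearts from 270.4 CPM (median 790.4) to 1108 CPM. The sham and MI libraries did not overlap, and the log2 fold change was 5.34 ± 0.40 (40.4-fold, adjusted p = 2.88e-05). In the border zone the untreated MI libraries spread more widely, from 57.2 CPM (median 184) to 817 CPM, against 5.29 to 13.3 CPM in sham, with a log2 fold change of 5.23 ± 0.63 (adjusted p = 0.000232). In the remote zone, Col12a1 was between 18.8 CPM and 159.9 CPM (median 65.1) in untreated MI and between 6.10 and 12.4 CPM in sham. These groups were apart as well, with a log2 fold change of 3.33 ± 0.52 (adjusted p = 0.00139), beside 3.34 for Col8a2.

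Col14a1, which encodes collagen XIV, another protein of the fibril surface, had a smaller fold change. Infarct zone levels ran from 191 CPM (median 199.9) to 312 CPM in sham, from 332 CPM (median 495) to 607 CPM in untreated MI and from 474 CPM (median 588) to 735 CPM under the cell sheet. The MI and sham libraries did not overlap, with a log2 fold change of 1.13 ± 0.17 (adjusted p = 0.000456). The change was of like size in the border zone (1.09 ± 0.20, adjusted p = 0.00207) and the remote zone (1.02 ± 0.19, adjusted p = 0.00279), although remote libraries overlapped. MI replicate 1 of the remote zone had 210.3 CPM, below the 215.5 CPM of the highest sham library.

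Col16a1, the chain of collagen XVI, a FACIT found near fibrils and basement membranes, had a fold change between those of the other FACITs in the infarct and border zones. Its infarct zone levels were 20.3 to 27.4 CPM in sham (median 26.4), 70.3 to 237 CPM in untreated MI (median 209.5) and 188 to 435 CPM under the cell sheet (median 322). The log2 fold change of untreated MI against sham was 2.86 ± 0.25 in the infarct zone (adjusted p = 3.64e-05), 2.82 ± 0.31 in the border zone (adjusted p = 0.000152) and 1.39 ± 0.31 in the remote zone (adjusted p = 0.00671), and the groups did not overlap in any zone.

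Both type VIII chains rose in all 3 zones. Col8a1 was at 15.3 to 26.6 CPM in sham infarct zones (median 20.8), at 66.7 to 284.5 CPM in untreated MI (median 204) and at 104 to 387 CPM under the cell sheet (median 263). The log2 fold change against sham was 3.29 ± 0.30 in the infarct zone (adjusted p = 4.33e-05), 3.00 ± 0.39 in the border zone (adjusted p = 0.000356) and 2.79 ± 0.37 in the remote zone (adjusted p = 0.000791). Sham and MI libraries were apart in all 3 zones.

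Col8a2, the partner chain, was at 4.46 to 6.78 CPM in sham infarct zones (median 5.77), from 51 to 99 counts per library. In untreated MI it ran from 24.6 CPM in replicate 1 to 241 CPM (median 183), and under the cell sheet from 63.9 to 267 CPM (median 161). The log2 fold change of MI against sham was 4.85 ± 0.45 in the infarct zone (28.8-fold, adjusted p = 4.33e-05), 4.41 ± 0.43 in the border zone (adjusted p = 9.95e-05) and 3.34 ± 0.51 in the remote zone (adjusted p = 0.00133). Groups did not overlap in any zone, and without MI replicate 1 the infarct zone value was 5.09.

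The multiplexins differed from each other. Col15a1, which encodes collagen XV, ran from 205 CPM in sham replicate 5 (median 382) to 469 CPM in sham infarct zones, from 321 CPM (median 394) to 469 CPM in untreated MI and from 390.5 CPM (median 449) to 545 CPM under the cell sheet. All 3 groups overlapped, and the log2 fold change of MI against sham was 0.13 ± 0.18 (adjusted p = 0.563). It was 0.13 ± 0.20 in the border zone (adjusted p = 0.612) and 0.30 ± 0.14 in the remote zone (adjusted p = 0.137). Scaling by library size in place of TMM, which moved the median of all genes by 0.26 (infarct), 0.19 (border) and 0.13 (remote zone), gave Col15a1 0.41 (adjusted p = 0.049), 0.34 (adjusted p = 0.157) and 0.44 (adjusted p = 0.029), so that its calls depend on the scaling.

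Col18a1, whose C-terminal fragment is endostatin, was at 37.4 to 69.4 CPM in sham infarct zones (median 43.2), with the highest value in replicate 5. It was at 102 to 395 CPM in untreated MI (median 233.5) and at 198 to 489 CPM under the cell sheet (median 431). The log2 fold change of MI against sham was 2.38 ± 0.29 in the infarct zone (adjusted p = 0.000151), 2.19 ± 0.30 in the border zone (adjusted p = 0.00042) and 1.06 ± 0.24 in the remote zone (adjusted p = 0.00728). Groups were apart in the infarct and border zones and overlapped in the remote zone, where sham replicate 5 had 79.3 CPM and the lowest MI library 63.9 CPM.

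The type IV pair rose in the infarct and border zones. Col4a1 was at 338 to 666 CPM in sham infarct zones (median 595), at 651 to 1684 CPM in untreated MI (median 1458) and at 1229 to 2445 CPM under the cell sheet (median 1858). MI replicate 1, the lowest of its group, had 651 CPM and fell within the sham range, while the other 5 MI libraries lay above every sham library. The log2 fold change was 1.29 ± 0.23 in the infarct zone (adjusted p = 0.00137), 1.12 ± 0.26 in the border zone (adjusted p = 0.00653) and 0.43 ± 0.18 in the remote zone (adjusted p = 0.102). Scaled by library size, the remote value was 0.56 and was called (adjusted p = 0.036).

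Col4a2 was at 273 to 589 CPM in sham infarct zones, with the lowest value in replicate 5 (median 533.5), at 509 to 1125 CPM in untreated MI (median 941) and at 939 to 1558 CPM under the cell sheet (median 1152). Its log2 fold change against sham was 0.87 ± 0.22 in the infarct zone (adjusted p = 0.00649) and 0.14 ± 0.19 in the remote zone (adjusted p = 0.618). In the border zone it was 0.73 ± 0.25 (adjusted p = 0.0361), a call that was kept in 4 of the 12 fits with 1 library left out. Those 4 left out MI replicate 1 (0.87), sham replicate 3, sham replicate 4 or sham replicate 5 (0.61).

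Col4a1 and Col4a2 are transcribed away from each other in the RefSeq promoter table of the GRCr8 assembly, which holds 7 of the 9 genes (Col12a1 and Col14a1 were not among them). Their annotated starts are separated by 76 bases at chr16:84885521-84885596, shown on the plus strand, along which Col4a1 is read, with Col4a2 read from the other end of the same stretch. This stretch is printed because both genes were called higher in the infarct and border zones of untreated MI, although their ratio also differed there. Whether the stretch has a part in either result was not tested. The 76 bases before the start of Col8a1 (chr11:56246706-56246781) and of Col8a2 (chr5:143870693-143870768), both on the plus strand, are set beside it as the other chain pair of the set, whose genes lie on separate chromosomes. Capitals mark GGGCGG or its reverse complement CCGCCC, which a search of both strands found, while CCAAT and TATAAA were not found in these windows. Of the 76-base windows before the start in all 33469 promoters of the table, 18.1% hold GGGCGG on either strand, 13% CCAAT and 4.61% TATAAA. In the Col8a2 window the last 2 of its 4 matches overlap.
Col4a1 and Col4a2, between both starts: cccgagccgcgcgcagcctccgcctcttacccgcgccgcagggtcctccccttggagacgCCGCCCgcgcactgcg
Col8a1, before the start: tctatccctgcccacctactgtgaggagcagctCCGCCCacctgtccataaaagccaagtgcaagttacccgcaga
Col8a2, before the start: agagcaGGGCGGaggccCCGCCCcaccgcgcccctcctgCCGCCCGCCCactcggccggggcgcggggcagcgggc

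**Figure D3:**
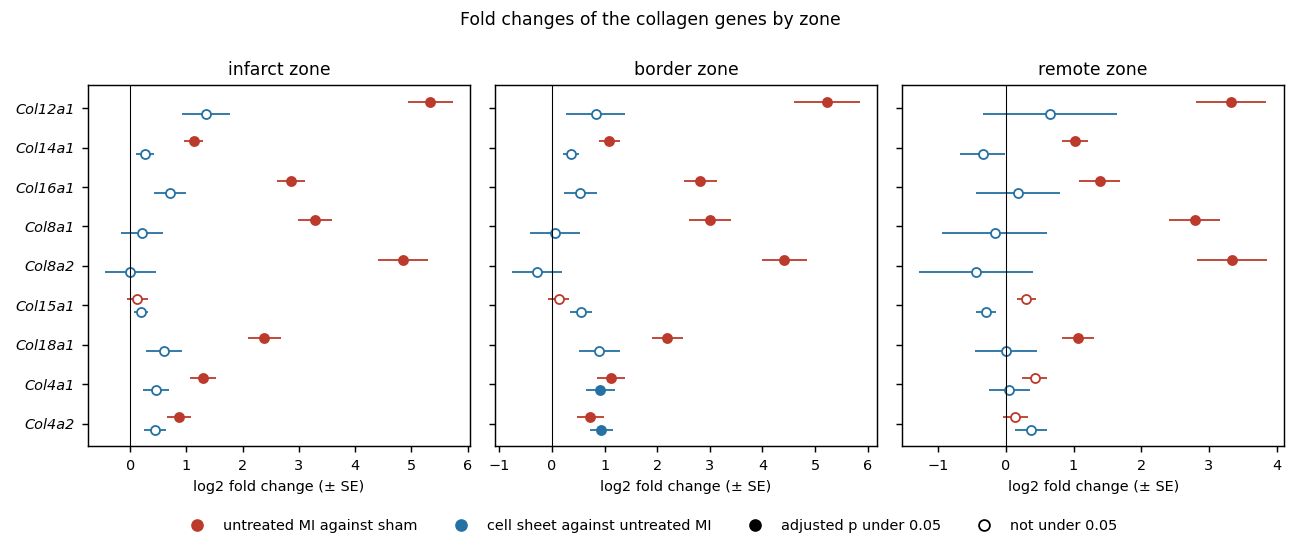
Log2 fold change ± SE of each collagen gene in the infarct, border and remote zones, with untreated MI against sham in red, cell sheet-treated against untreated MI in blue and filled points where the adjusted p was under 0.05. For untreated MI against sham, Col12a1 reaches 5.34 and Col15a1 0.13 in the infarct zone, and for the cell sheet only Col4a1 (0.92) and Col4a2 (0.94) of the border zone are filled.

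The size of the MI response depended on the zone for 6 of the 9 genes. The difference between the infarct zone and remote zone responses, tested as a treatment by zone interaction within animals, was called for Col12a1 (2.19 ± 0.42, adjusted p = 0.00265), Col16a1 (1.56 ± 0.25, adjusted p = 0.00131), Col8a2 (1.64 ± 0.45, adjusted p = 0.0154), Col18a1 (1.25 ± 0.20, adjusted p = 0.00113), Col4a1 (0.88 ± 0.23, adjusted p = 0.0118) and Col4a2 (0.75 ± 0.22, adjusted p = 0.0209), all with the larger response in the infarct zone. Of all 16445 genes tested, 13.6% were called in that direction. Col8a1 was not called (0.60 ± 0.26, adjusted p = 0.0968), nor were Col14a1 (0.17 ± 0.15, adjusted p = 0.403) and Col15a1 (-0.15 ± 0.16, adjusted p = 0.506). The 6 calls were kept with each animal left out in turn. Of 5 other settings, Col12a1, Col16a1 and Col18a1 kept the call in 5, and Col8a2, Col4a1 and Col4a2 in 4. Myofibroblast sums in the remote zone of untreated MI were 428 to 2447 CPM, against 105 to 671 CPM in sham, and their part was not tested.

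Between the border and remote zones, and between the border and infarct zones, edgeR called 0 of the 9 genes and 0% of all genes tested. At an unadjusted p under 0.05 there were 6 members for border against remote (Col12a1, Col16a1, Col8a2, Col18a1, Col4a1 and Col4a2) and 2 for border against infarct (Col8a1 and Col8a2). DESeq2 called 3 members beside 1411 of 29922 genes for border against remote, and 0 beside 68 of 30175 for border against infarct. Here and below, the DESeq2 totals hold every gene with a count in any library compared, also genes left without an adjusted p. Shares by DESeq2 are therefore diluted and not comparable with those by edgeR, which follow its filter. Counts at an unadjusted p are given here and below without the share of all genes. The border differences from the infarct response were -0.43 ± 0.18 for Col8a1 and -0.43 ± 0.19 for Col8a2.

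Under the cell sheet, Col4a1 and Col4a2 were the members that were called, and only in the border zone. Against untreated MI, 2 of 9 genes were called higher there, beside 8.47% of the 16272 genes tested. Border zone levels of Col4a1 were 343 to 674 CPM in sham (median 571), 478 to 1393 CPM in untreated MI (median 1289) and 1329 to 3175 CPM in treated hearts (median 2140). Only cell sheet replicate 3, with 1329 CPM, lay inside the untreated range, and the log2 fold change was 0.92 ± 0.27 (1.89-fold, adjusted p = 0.0346). Leaving out any of 7 libraries ended this call, which was kept in 5 of 12 fits, with values from 0.75 (without MI replicate 1) to 1.03 (without cell sheet replicate 3). With cell sheet replicate 1, the highest treated library, left out, it was 0.79 (adjusted p = 0.0578).

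Col4a2 was at 268 to 633 CPM in sham border zones (median 499.9), at 389 to 964 CPM in untreated MI (median 864) and at 1059 to 1986 CPM under the cell sheet (median 1549). All 6 treated libraries lay above all 6 untreated ones, a separation in this direction that 4.26% of all genes had. The log2 fold change was 0.94 ± 0.22 (1.92-fold, adjusted p = 0.0132), and the call was kept in all 12 fits with 1 library left out, with values from 0.80 to 1.03, and without cell sheet replicate 1 it was 0.86 (adjusted p = 0.0224). With the infarct and border libraries of each animal summed, Col4a2 was called higher (0.70 ± 0.18, adjusted p = 0.0289), beside 6.02% of 17985 genes, and Col4a1 was not (0.69 ± 0.22, adjusted p = 0.0561), although the groups did not overlap for either gene, as for 3.66% of all genes with the treated side higher. The call of Col4a2 on the sums was lost without cell sheet replicate 1, 2 or 4 or MI replicate 3. DESeq2 called 5 of the 9 genes on the sums, beside 3147 of 30566 genes.

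The other members of the border zone gave values and no call. Col15a1 was at 282 to 444 CPM in untreated MI (median 392) and at 292 to 831 CPM under the cell sheet (median 536), with a log2 difference of 0.55 ± 0.22 (adjusted p = 0.0981). Col18a1 was at 98.3 to 352 CPM in untreated MI (median 190.3) and at 135 to 709 CPM under the cell sheet (median 401), with 0.90 ± 0.39 (adjusted p = 0.133). Without cell sheet replicate 3, the lowest treated library for both, Col15a1 (0.68) and Col18a1 (1.08) were called. Without cell sheet replicate 1, the highest treated library for both, the values were 0.42 and 0.69, not called. Col12a1 differed by 0.83 ± 0.56, Col14a1 by 0.36 ± 0.15, Col16a1 by 0.54 ± 0.32, Col8a1 by 0.06 ± 0.48 and Col8a2 by -0.28 ± 0.48 on the log2 scale, with adjusted p between 0.126 and 0.945.

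Mural cell markers were higher with the sheet in the border zone, as was the type IV pair. The sum of 8 mural markers was 1191 to 1348 CPM in treated and 503 to 809.9 CPM in untreated border zones. Between sham (362 to 857 CPM, median 789) and untreated MI (median 740) the mural sums overlapped there. The mean log2 CPM of the mural markers overlapped too, but its median was higher in untreated MI. It was 4.49 to 5.80 (median 5.62) in sham and 5.22 to 6.21 (median 5.98) in untreated MI border zones. Col4a1 and Col4a2 were called higher in untreated MI in that zone. Endothelial sums were 1283 to 1615 CPM against 870.5 to 1371 CPM, and macrophage sums 1625 to 5163 CPM against 2379.6 to 8127 CPM. The mean log2 CPM of the same macrophage markers did not differ in this way. It was 6.21 to 8.72 (median 7.66) in treated and 6.73 to 8.26 (median 7.67) in untreated border zones. Mural sums were also higher with the sheet in the remote zone (1027 to 1262 CPM against 596 to 759 CPM), where Col4a1 and Col4a2 were not called. The mean log2 CPM of 6 adipocyte markers was -0.22 to 6.45 (median 5.05) in treated and -0.22 to 3.24 (median 0.55) in untreated border zones, while their sums, 300.3 to 1113 CPM and 259.5 to 889 CPM, were less far apart. Mesothelial sums were 49.6 to 733 CPM against 80.6 to 548 CPM. The part of these cells in the type IV result was not tested.

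In the infarct zone edgeR called 0 of the 9 genes and 0% of all 16196 genes between the cell sheet and untreated MI, and DESeq2 called 0 members and 56 genes. At an unadjusted p under 0.05 there were 3 members, Col12a1 (1.35 ± 0.43, 2.55-fold, adjusted p = 0.476), Col16a1 (0.71 ± 0.29, adjusted p = 0.542) and Col4a2 (0.44 ± 0.20, adjusted p = 0.586). By p they ranked 265, 863 and 1188 among the 16196 genes. The other members ran from 0.0050 ± 0.45 for Col8a2 to 0.60 ± 0.32 for Col18a1. All 9 values had the same sign, but without MI replicate 1 that of Col8a2 was -0.21. The groups overlapped for all 9 genes, beside 0.747% of genes without overlap. Only 4 of the 6 treated libraries exceeded the highest untreated Col12a1 level of 400.2 CPM, and replicate 5 (270.4 CPM) and replicate 6 (370.4 CPM) did not. Cell sheet replicate 6 was the lowest treated infarct library for 8 of the 9 genes and had a cardiomyocyte sum of 40807 CPM, against 1032 to 17847 CPM in the others.

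Remote zone results for the cell sheet turned on 1 animal. edgeR called 0 of the 9 genes against untreated MI, beside 17.1% of 15374 genes, with 0 members at an unadjusted p under 0.05. DESeq2 called 0 members and 3693 of 27451 genes. Cell sheet replicate 1 was the highest treated library for all 9. Its Col12a1 level was 626 CPM against 10.4 to 64.4 CPM in the other 5 animals, its Col8a1 level 488 CPM against 16.6 to 70.6 CPM, and its Col8a2 level 157.5 CPM against 6.26 to 21.5 CPM. These 5 were below the median of untreated MI for Col12a1 (65.1 CPM), Col8a1 (117 CPM) and Col8a2 (36.7 CPM).

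Without cell sheet replicate 1, 4 of the 9 genes were called lower under the cell sheet than in untreated MI, where 20.8% of the 15502 genes then tested were called lower. They were Col8a2 (-2.09, adjusted p = 0.0111), Col8a1 (-1.75, adjusted p = 0.00943), Col14a1 (-0.71, adjusted p = 0.0319) and Col15a1 (-0.38, adjusted p = 0.0281). With it, the same values were -0.44 ± 0.84, -0.16 ± 0.78, -0.34 ± 0.33 and -0.29 ± 0.14. Col12a1 turned from 0.65 ± 0.99 to -1.62 (adjusted p = 0.0512), Col16a1 from 0.18 ± 0.62 to -0.86 (adjusted p = 0.0995) and Col18a1 moved from -0.0048 ± 0.46 to -0.70 (adjusted p = 0.0571). Col4a1 (from 0.05 to -0.24) and Col4a2 (from 0.37 to 0.20) were not called either way. Myofibroblast sums were 183 to 687 CPM in the 5 animals and 428 to 2447 CPM in untreated MI, and their cardiomyocyte sums were 56194 to 85012 CPM against 37213 to 58352 CPM. The part of these cells was not tested.

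**Figure D4:**
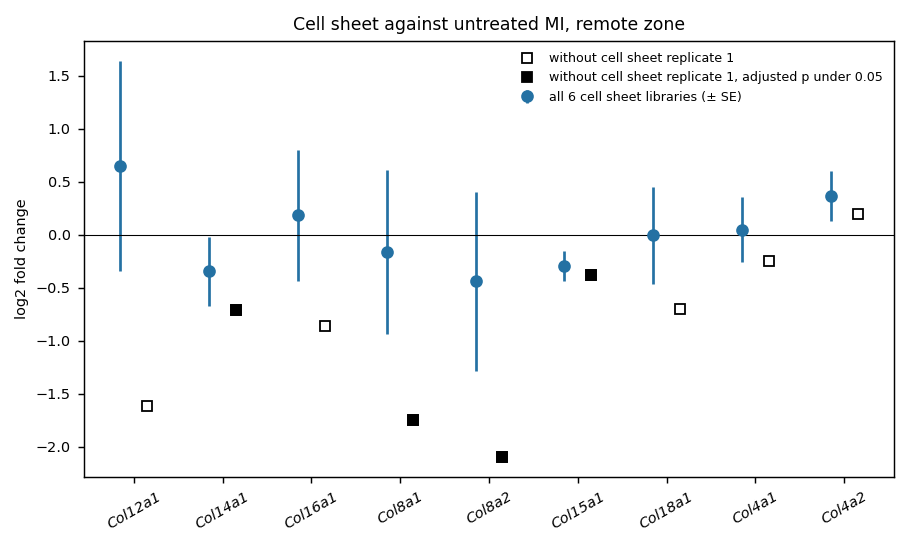
Log2 fold change of the 9 collagen genes between cell sheet-treated and untreated MI in the remote zone, with all 6 treated libraries (blue, ± SE) and without cell sheet replicate 1 (squares, filled where the adjusted p was under 0.05). Without that library Col12a1 moves from 0.65 to -1.62 and Col8a2 from -0.44 to -2.09, while Col4a2 moves from 0.37 to 0.20.

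The difference of the cell sheet effect between zones was not called for any of the 9 genes by edgeR in any pair of zones, beside 0% of all genes. Infarct against remote zone had 5 members at an unadjusted p under 0.05 and 1 called by DESeq2, border against remote 5 and 2, and border against infarct 1 (Col4a2, 0.54 ± 0.20, adjusted p = 0.327) and 0. In the same order, DESeq2 called 1611 of 29753, 1067 of 30314 and 311 of 30566 genes. The counts at an unadjusted p again have no share of all genes beside them and are not read as a result about the members. Without cell sheet replicate 1, the difference between infarct and remote zones was called for 6 members, each with the higher value of the effect in the infarct zone, beside 7.98% of all genes called in that direction. They were Col12a1 (2.90), Col14a1 (0.90), Col16a1 (1.53), Col8a1 (1.81), Col8a2 (1.92) and Col18a1 (1.31). For Col4a2 it was 0.17 without that animal and 0.12 ± 0.25 with it.

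Against sham, treated hearts had 8 of the 9 genes called higher in the infarct zone (28.6% of 15687 genes called higher) and 8 in the border zone (20.4% of 15960), and Col15a1 was the exception in both. For 8 genes the groups did not overlap in either zone, which held with the treated side higher for 11.7% and 9.55% of all genes. The largest values were those of Col12a1, 6.72 ± 0.38 (105-fold, adjusted p = 2.78e-06) in the infarct zone and 6.04 ± 0.43 (adjusted p = 3.98e-06) in the border zone. These comparisons share libraries with those above and are not independent of them. Without sham replicate 5 and cell sheet replicate 1 together, 8 genes were called in each of these zones.

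Of the 9 genes, edgeR called 0 in the remote zone between treated and sham hearts, beside 0.00660% of 15157 genes. At an unadjusted p under 0.05 there were 7 members. This count has no share of all genes beside it and is not read as a result about the members. DESeq2 called 1 member, beside 173 of 27510 genes. Remote levels of Col8a2 were 3.58 to 5.57 CPM in sham (median 4.87) and 6.26 to 157.5 CPM in treated hearts (median 11.5). These did not overlap, and Col8a2 was the only member for which this held, beside 0.779% of genes. Its log2 fold change was 2.92 ± 0.82 (adjusted p = 0.269), and 1.25 (adjusted p = 0.10) without sham replicate 5 and cell sheet replicate 1.

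The balance between related chains was measured within each library as the log2 ratio of counts, which is free of scaling between libraries, and compared by an exact permutation test, 2-sided, with p-values adjusted over 24 tests. The smallest p that 6 libraries against 6 allow is 0.00216, and 11 of the 24 differences had an adjusted p under 0.05. The Col4a1 to Col4a2 ratio was 0.18 ± 0.06 (SD, n = 6) in sham infarct zones and 0.58 ± 0.12 in untreated MI, a difference of 0.39 (adjusted p = 0.0104, exact test) with no overlap. It was also higher in untreated MI in the border zone (0.53 against 0.18, adjusted p = 0.0115, exact) and the remote zone (0.48 against 0.22, adjusted p = 0.0283, exact). In the remote zone the ratio differed although neither gene was called there on its own, and without sham replicate 3 the remote difference was 0.22 (adjusted p = 0.0519, exact).

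In treated hearts this ratio was 0.60 ± 0.11 for the infarct and 0.50 ± 0.12 for the border zone, with differences of 0.03 and -0.02 from untreated MI (adjusted p = 0.807 and 0.831, exact). Remote zone ratios were 0.09 ± 0.21 in treated and 0.48 ± 0.11 in untreated hearts, a difference of -0.38 (adjusted p = 0.0156, exact). Treated libraries ran from -0.08 to 0.46, with the highest value in cell sheet replicate 1, and untreated ones from 0.34 to 0.63. The ratio was not set against sham in a test.

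The Col8a1 to Col8a2 ratio fell from 1.82 ± 0.27 in sham to 0.44 ± 0.58 in untreated MI in the infarct zone (difference -1.38, adjusted p = 0.0115, exact) and from 1.95 ± 0.41 to 0.57 ± 0.63 in the border zone (-1.38, adjusted p = 0.0104, exact). In the remote zone the values were 1.91 ± 0.38 and 1.61 ± 0.68 (adjusted p = 0.496, exact). The Col12a1 to Col14a1 ratio was higher in untreated MI by 4.01 in the infarct, 3.72 in the border and 1.95 in the remote zone (adjusted p = 0.0104 in each, exact), with no overlap in any. The Col15a1 to Col18a1 ratio differed between untreated MI and sham by -2.12 in the infarct and -1.92 in the border zone (adjusted p = 0.0115 in both, exact), and by -0.72 in the remote zone (adjusted p = 0.108, exact). Sham replicate 5 had the lowest sham Col15a1 to Col18a1 ratio in each zone, and without it the remote difference was -0.99 (adjusted p = 0.0104, exact). For these 3 pairs, no difference between treated and untreated hearts had an adjusted p under 0.05, and the closest was Col12a1 to Col14a1 in the infarct zone (1.13, adjusted p = 0.0866, exact), which was called without cell sheet replicate 5 (1.40).

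**Figure D5:**
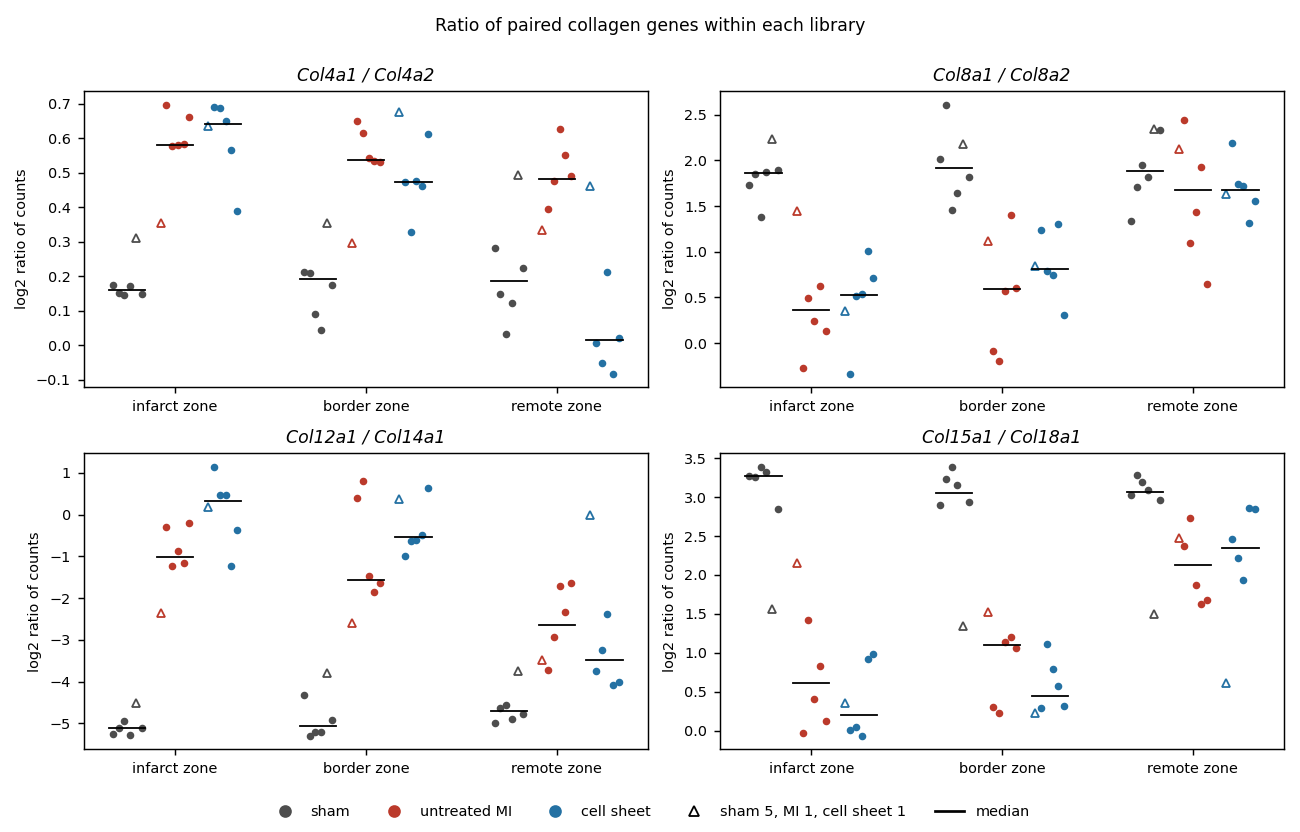
Log2 ratio of counts of the 4 chain pairs in each of the 54 libraries by zone, with sham in grey, untreated MI in red, cell sheet-treated in blue, 6 points and a median line per group, and triangles for sham replicate 5, MI replicate 1 and cell sheet replicate 1. The mean Col4a1 to Col4a2 ratio of the remote zone is 0.22 in sham, 0.48 in untreated MI and 0.09 in treated hearts.

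Ordered by mean log2 CPM over the 9 groups, the treated infarct or border zone stood first for every member, and a sham group stood last. Most neighbours in these orders differed by less than the larger of their SDs. Exceptions were the steps from untreated MI border zone to remote zone for Col12a1 (7.77 to 5.87), Col16a1 (7.31 to 5.72) and Col18a1 (7.66 to 6.63), from treated border zone to untreated MI remote zone for Col8a2 (6.47 to 5.14), and from treated border zone to untreated MI infarct zone for Col12a1 (8.93 to 7.90). For Col4a2 the means of the treated (10.24) and untreated MI (9.77) infarct zones differed by more than the larger SD, although the libraries of these groups overlapped. Among sham groups, the same held for the means of Col4a1 in the remote (9.50) and infarct (9.08) zones and of Col8a2 in the infarct (2.53) and remote (2.27) zones. For Col14a1, Col8a1 and Col15a1 no neighbours differed by that much.

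Across the 54 libraries, likeness was taken as the root mean square difference of centred log2 CPM, over 13300 genes with a mean of at least 1. Smaller values mean more alike, and libraries of the same group share their treatment. Levels were centred but not scaled, so genes with a wide range of levels have larger values, which are not comparable between members. Col4a1 and Col4a2 were near neighbours (0.22), with Pxdn (0.29), which encodes peroxidasin, a crosslinker of collagen IV, next for Col4a1. The gene most like Col4a2 was Hspg2 (0.19), which encodes the basement membrane proteoglycan perlecan, and Pear1 (0.30) came after Col4a1. Col16a1 was most like the fibrillar genes Col1a2 (0.25) and Col5a2 (0.26), then Olfml2b (0.29). Col14a1 was most like Nid1 (0.21), Nbl1 (0.21) and Gas1 (0.23), and Col18a1 like Sh3pxd2b (0.32), Pcolce (0.35) and Col6a1 (0.36). The genes nearest to Col12a1 were Prss35 (0.79), Ccn4 (0.85) and Col1a1 (0.87). Col8a2 was most like Clec11a (0.42), Adamts17 (0.57) and Col1a1 (0.70), and Col8a1 like Fibin (0.53), Adamts17 (0.54) and C1qtnf5 (0.57). Col15a1 was most like Ehd2 (0.19), Ebf1 (0.22) and Serinc5 (0.23).

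Other collagens and their partners were counted from lists. In the infarct zone of untreated MI, where 22.7% of all genes were called higher and 27.2% lower, 9 of the 10 fibrillar collagens tested were called higher and 0 lower, with a list median of 2.63 on the log2 scale, and examples were Col11a1 (7.33 ± 0.77), Col1a1 (3.70 ± 0.33) and Col1a2 (3.10 ± 0.30). Of other FACITs and FACIT-like collagens, 3 of 5 tested were higher, Col9a2 (3.09 ± 0.74), Col20a1 (1.63 ± 0.36) and Col9a3 (1.53 ± 0.38). Of other type IV and network chains, 2 of 4 tested were higher, Col4a6 (0.82 ± 0.20) and Col4a5 (0.40 ± 0.15), with a list median of -0.09. Of collagen folding and crosslinking genes, 16 of 20 tested were higher and 1 lower (median 1.32). Among them were P4ha3 (4.36 ± 0.45), a prolyl hydroxylase subunit, Lox (3.90 ± 0.30), lysyl oxidase, and Plod2 (2.84 ± 0.34), a lysyl hydroxylase. The median of all genes tested was -0.02, and the adjusted p of each gene named here was under the threshold by edgeR. Col1a2 is also a fibroblast marker and Lox a myofibroblast marker in the lists used here.

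Of 22 basement membrane partners tested in the infarct zone of untreated MI, 9 were higher and 4 lower (median 0.32), again beside 22.7% and 27.2% of all genes. Lama3 (2.12 ± 0.34), a laminin chain, Smoc1 (2.11 ± 0.47) and Sparc (1.86 ± 0.21), which binds collagen IV, had the largest changes. Genes of type IV and endostatin processing were higher in 8 of 9 tested, with Mmp9 (3.01 ± 0.71), a gelatinase, Mmp14 (2.36 ± 0.22) and Timp1 (2.13 ± 0.60), a metalloproteinase inhibitor. Collagen receptors were higher in 3 of 6 tested, the integrin chains Itga11 (3.73 ± 0.46) and Itgb1 (0.79 ± 0.13) and the discoidin receptor Ddr2 (0.36 ± 0.12).

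Under the cell sheet in the border zone, where 8.47% of genes were called higher and 9.48% lower, 6 of 23 basement membrane partners were higher and 0 lower (median 0.34, against -0.0044 over all genes). The count was 3 with the replicate block, 5 to 7 in the other alternatives and 6 or 7 with 1 library left out. The largest were the laminin chains Lamc3 (2.09 ± 0.48, adjusted p = 0.0116) and Lama3 (2.03 ± 0.47, adjusted p = 0.0112) and Hspg2 (1.12 ± 0.20, adjusted p = 0.00343). Lamc3, looked up after its border value was seen, was lower in untreated MI than in sham in the infarct zone (-1.18 ± 0.38, adjusted p = 0.0207). Of collagen folding and crosslinking genes, Mia3 (0.39 ± 0.09, adjusted p = 0.0113), needed for export of large procollagens, was the 1 of 20 tested that was called. Of the 10 fibrillar collagens, 7 receptors and 9 processing genes tested, edgeR called 0, while the fibrillar list's median was 0.55. DESeq2 called 2, 1 and 1 of these, beside 3825 of 29304 genes.

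The same lists were counted in the other zones. In the border zone of untreated MI, 18.4% of all genes were called higher and 23.2% lower. In its remote zone the shares were 11.7% and 14.2%. In the border and remote zones of untreated MI, 8 and 6 of the 10 fibrillar collagens were higher and 1 was lower in each, and 16 and 14 of the 20 folding and crosslinking genes were higher. Of 22 basement membrane partners, 8 were higher and 2 lower in both zones, and the remote zone's total was 6 without MI replicate 5 or without sham replicate 2. Of the 9 processing genes, 8 and 6 were higher. Other FACITs had 1 and 0 of 4 called higher, other type IV and network chains 0 and 1 of 4, and receptors 3 of 7 and 2 of 6, with 1 receptor lower in the remote zone. Under the cell sheet in the infarct zone 0 genes of any list were called against untreated MI by edgeR, and DESeq2 called 1 processing gene and 1 folding gene. In the remote zone 10.3% of all genes were called higher and 6.79% lower under the sheet. There 2 of 22 basement membrane partners were higher, 1 of 6 receptors was higher and 1 lower, and 1 of 9 processing genes was lower. Those counts rested on the libraries included. Without cell sheet replicate 1, called genes in either direction numbered 7 for fibrillar collagens, 10 for basement membrane partners, 3 for receptors, 8 for processing genes and 16 for folding genes. In that fit 20.8% of 15502 genes were called lower, and directions within the lists were not counted separately. The share called in either direction was larger than that by the genes called higher and is not given. These list counts therefore have no matching share beside them. On the infarct and border sums, 6.02% of all genes were called higher. Among the lists, 2 fibrillar collagens, 5 basement membrane partners, 1 processing gene and 1 folding gene were higher. With the replicate block the fibrillar, basement membrane and processing counts were 0.

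Against sham, 28.6% of genes were called higher and 29.2% lower in treated infarct zones, and 20.4% and 23.2% in border zones. Treated hearts had 9 of 10 fibrillar collagens called higher in the infarct and border zones, and 18 of 20 folding and crosslinking genes in both, with 1 lower in each. Basement membrane partners were higher in 10 of 22 and lower in 2 in the infarct zone, and higher in 11 and lower in 0 in the border zone. In the remote zone 0 genes of any list were called, beside 0.00660% of all genes.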

How the data were processed

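Poly(A) RNA of 54 left ventricular samples was sequenced in paired ends, and the authors aligned the reads with STAR to the rat assembly mRatBN7.2 and deposited raw counts per gene for each library, with no normalization. The 5 summary lines of each table, which hold reads assigned to no gene, took 17.0 to 42.8% of each library and were left out. Groups were taken from the labels. Each comparison was tested on these deposited counts with edgeR 4.0.16 in R 4.3.3 (TMM, default expression filter, quasi-likelihood F test, Benjamini-Hochberg over all genes tested, threshold 0.05), using the libraries of the groups compared only. Differences between zones were tested as a treatment by zone interaction with a term for each animal. CPM values carry TMM scaling, log2 CPM a prior count of 2, and ratios an offset of 0.5 counts. Recovery of known changes was tested on simulated counts. No library pair agreed within sampling noise.

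The 9 genes and the lists were chosen with earlier results of these data known. All 9 genes were named in every comparison, with up to 3 called genes of each list by absolute log2 fold change in MI against sham (infarct zone) and cell sheet against MI (border zone), and the 3 genes most alike over the libraries, of which 1 is not reported here. Alternatives were DESeq2 1.42.0, scaling by library size, no filter, at least 10 counts in every library, all 9 groups in a single fit, a replicate block, an absolute log2 fold change above 1, an offset of 5 and each library left out. For the sums and the differences between zones, each animal was left out with all its libraries in the fit. The joint omission of sham replicate 5 and cell sheet replicate 1 was added after seeing the data. Promoter sequence came from RefSeq tables of GRCr8, and no coordinate was moved between assemblies. Depth per library limits low counts, the lowest for these genes being 51.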

Additional observations from a re-analysis of the deposited data

Results flagged for a closer look

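Of 81 groups of 6 libraries (9 genes in 9 groups), 13 had a highest or lowest log2 CPM whose gap to its neighbour, as a share of the group's range, was above Dixon's critical value. Chance gives about 1 in 20 groups, and the values of 1 library are not independent between genes. MI replicate 1 was the low value in 9 of them. In the infarct zone its log2 CPM was 6.02 for Col12a1, 6.14 for Col16a1, 6.06 for Col8a1, 4.62 for Col8a2, 9.35 for Col4a1 and 8.99 for Col4a2. In the border zone it was 4.25 for Col8a2, 8.90 for Col4a1 and 8.60 for Col4a2. Sham replicate 5 was the low value for Col15a1 in the border zone (7.48) and for Col4a2 in the infarct zone (8.09), and the high value for Col18a1 in the infarct zone (6.12). Sham replicate 6 was the low value for Col16a1 in the infarct zone (4.35).

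The response to MI differed between the infarct and remote zones for 6 genes by the interaction test, with log2 differences of 2.19 for Col12a1, 1.56 for Col16a1, 1.64 for Col8a2, 1.25 for Col18a1, 0.88 for Col4a1 and 0.75 for Col4a2.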

How the results depend on the processing

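Of 856 alternative fits of values called as reported, 828 kept direction and call, 28 lost the call and 0 changed direction. Most of these fits were of differences from sham, and the losses were unevenly spread. Of 6 other settings, the cell sheet against MI call was kept in 4 for Col4a1 and 5 for Col4a2 in the border zone. It was kept in 5 of 6 for Col4a2 on the sums. In MI against sham, border zone, Col4a2 kept its call in 4 of 6. With 1 library left out, or 1 animal on the sums, these calls were kept or lost as given above. Values that changed sign were not called as reported, and the cause was not tested. In cell sheet against MI, the border zone count of 2 became 1 with no filter, beside 2110 of 29304 genes, and 0 with an absolute log2 fold change above 1. On the infarct and border sums, the count of 1 became 5 with DESeq2, 2 with at least 10 counts in every library and 0 with an absolute log2 fold change above 1. For differences between zones, where edgeR called 0, DESeq2 called 1 (cell sheet, infarct against remote), 2 (cell sheet, border against remote) and 3 (MI, border against remote), and it called 1 for cell sheet against sham in the remote zone, where a single fit of all 9 groups gave 4. Replicate numbers did not pair the libraries: same-numbered libraries came from different rats, with correlations from -0.81 to 0.67. With the replicate block, counts were 0 for cell sheet against MI in the border zone and on the sums, 7 for MI against sham in the border zone, 3 for the MI difference between infarct and remote zones (no animal block), and 0 of 24 for the ratios by sign flips, whose smallest p is 0.03125, while the other counts within single zones were as reported. The block gave -1.15 for Col12a1, -0.45 for Col16a1 and -0.054 for Col4a1 in cell sheet against MI, remote zone, where Col18a1 was 0.0088 with no filter. Library size scaling also moved the median of all genes by 0.26 and 0.27 in cell sheet against sham (infarct and border zones), and gave Col15a1 -0.062 for MI border against infarct. Except where given here or above, member counts under other settings or with libraries left out have no share of all genes beside them. There, a gain among the members cannot be told from a general gain of calls. Leaving out 1 library gave counts of 1 to 4 for cell sheet against MI in the border zone (1 without cell sheet replicate 1, 4 without replicate 3). In the remote zone they were 0 to 4 (4 without cell sheet replicate 1). Leaving out 1 animal gave 0 to 4 on the sums (0 without cell sheet replicate 1, 4 without MI replicate 1). It gave 0 to 2 for MI, border against remote (2 without MI replicate 5), and 0 to 6 for cell sheet, infarct against remote. Ranges that crossed 0 were, for cell sheet against MI in the remote zone, -1.62 to 0.97 (Col12a1), -0.86 to 0.49 (Col16a1), -1.75 to 0.13 (Col8a1), -0.70 to 0.16 (Col18a1) and -0.24 to 0.15 (Col4a1). They were -0.21 to 0.17 for Col8a2 in the infarct zone, -0.16 to 0.32 for Col8a1 in the border zone and -0.054 to 0.30 for Col8a1 on the sums. For border against infarct zone they were -0.21 to 0.19 (Col8a1), -0.59 to 0.14 (Col12a1), -0.34 to 0.12 (Col16a1) and -0.076 to 0.54 (Col18a1) under the cell sheet, and -0.10 to 0.048 (Col14a1), -0.065 to 0.13 (Col15a1) and -0.33 to 0.025 (Col16a1) after MI. Col15a1 ran from -0.0024 to 0.21 in MI against sham, border zone, and from -0.089 to 0.078 in cell sheet against sham, remote zone, where it was -0.19 without sham replicate 5 and cell sheet replicate 1. Cell sheet ratios ran from -0.12 to 0.24 (Col8a1 to Col8a2, remote), -0.11 to 0.34 (Col15a1 to Col18a1, remote), -0.070 to 0.011 (Col4a1 to Col4a2, border), -0.12 to 0.22 (Col8a1 to Col8a2, infarct) and -0.017 to 0.070 (Col4a1 to Col4a2, infarct). For the gene lists, whose alternatives were chosen after seeing the data, 84 of 630 counts under other settings and 131 of 1365 with libraries left out differed from the reported count by more than 1.5 times.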
